A study of Mus musculus with 2 samples.

Results

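The mRNAs described here encode the coats, cargo receptors and fusion factors that carry proteins between the endoplasmic reticulum (ER) and the Golgi. The 44 genes were chosen by name, out of 18181 gene names with a coding accession on the array. They comprised 10 genes of the COPII coat, 2 COPII accessory genes, 9 genes of the COPI coat, 3 Arf GTPases with their exchange factor Gbf1, 13 cargo receptors, and 6 SNAREs and tethers. All 44 were on the array, as 46 of 18743 coding mRNAs (accessions), and they were read by 76 probes. Copg, whose current symbol is Copg1, and Ergic2 had 2 accessions each. The values came from NIH3T3 cells, an established line of mouse fibroblasts, grown in medium with 10% bovine serum. Control cells were left untreated, and the stressed cells received 10 µM thapsigargin for 3 h, a dose and a time for which no other level was measured. Thapsigargin blocks the calcium pump of the ER and so empties its calcium store. RNA was separated on a 10 to 40% sucrose gradient into polysomes (P) and the lighter part with monosomes and ribosome-free RNA (FM), and 3 experiments were pooled in each condition. Each condition was read on 1 two-colour array.

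COPII assembles on the ER when the GTPase Sar1 recruits the inner layer of Sec23 and Sec24, which selects cargo, and then the outer layer of Sec13 and Sec31. COPI is a complex of coatomer subunits that the Arf GTPases recruit to Golgi membranes, and it returns ER proteins and recycles receptors. Cargo receptors of the Tmed, Ergic, Lman and Kdelr families span the membrane and link soluble cargo to these coats. The unfolded protein response, which ER stress sets off, slows translation initiation in general and raises transcription of many genes of the secretory pathway.

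The measure of polysome association, log2 P/FM, divides the P signal by the FM signal, and A, the measure of abundance, averages the log2 values of these signals. Fewer cells of a type and less RNA per cell cannot be told apart in such signals. With 1 array per condition no test was possible, and the nearest substitute for an error was the spread between probes of the same mRNA. The filter asked for A above 4.5 on both arrays, which no negative control spot (153) reached, and it left 10033 coding mRNAs, 45 of the 46 members among them. The SD of the change in log2 P/FM between probes had a median of 0.32 over 3412 mRNAs with 2 or more probes past this filter, and of 0.40 over the 23 such members. The median log2 P/FM of coding mRNAs was 0.34 on the control array and -0.29 on the thapsigargin array, and the median change was -0.71 in log2 P/FM and 0.37 in A. The spike-in probes moved by -2.45 in log2 P/FM, and scaling the arrays to them turned the median change to 1.74. On the arrays alone, the sign of an absolute change therefore depended on the scaling. Each change is also given relative to the median change of all coding mRNAs, which cancels any shift of a whole array. Outside the arrays, the study reported loss of heavy polysomes on gradients of these cells and lower incorporation of labelled methionine after thapsigargin. All 8 fibroblast markers passed the filter, while 8 of 10 markers of other cell types did not. The exceptions were Cd3e, with A of 6.06 in control and 5.93 in stressed cells, and Tubb3, with 7.52 and 7.93.

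Sequences are shown where the stress response of these genes, or a disagreement between their probes, can be read against them. The XBP1-binding core TGACGTGG, a motif of the unfolded protein response, was searched on both strands of RefSeq promoters (GRCm38.p6) that reach from 250 bases before to 50 bases after each gene's start. It lay in the promoters of 8 of 40 member genes found in the table, against 193 of 27025 genes (0.714%) and 2 of 48 other ER-Golgi genes. The 8 genes were Sec24d, Sec23a, Copb1, Copb2, Arf1, Gbf1, Kdelr3 and Stx5a. The stretches that follow read 5′ to 3′ along the gene, with the core or its reverse complement in capitals. The core of the first 5 lies before a start, although that of Arf1 lies after the start of a second Arf1 promoter, and the core of Copb2 is at its start.
Sec24d, chr3:123267444-123267495, plus strand: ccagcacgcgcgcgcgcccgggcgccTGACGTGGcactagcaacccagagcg
Copb1, chr7:114254681-114254734, minus strand: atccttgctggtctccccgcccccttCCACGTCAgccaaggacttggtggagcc
Gbf1, chr19:46152520-46152557, plus strand: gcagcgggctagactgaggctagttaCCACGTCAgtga
Kdelr3, chr15:79516352-79516407, plus strand: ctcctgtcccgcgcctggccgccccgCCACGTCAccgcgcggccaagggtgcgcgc
Arf1, chr11:59228213-59228272, minus strand: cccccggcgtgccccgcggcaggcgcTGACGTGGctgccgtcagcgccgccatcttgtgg
Copb2, chr9:98563713-98563742, plus strand: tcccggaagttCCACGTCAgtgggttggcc
The ER stress elements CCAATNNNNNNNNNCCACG (ERSE) and ATTGGNCCACG (ERSE-II) were in no member promoter, against 0.137% and 0.0444% of all genes. ERSE lay in 7 of 17 promoters of ER lumen chaperones, which did not hold the TGACGTGG core. A match describes the letters of the window and not a bound site.

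The first 30 bases of probes that gave unlike values for the same mRNA are shown in lower case, with probe positions on mm9. Each probe is 60 bases long.
Kdelr2 probe from transcript base 685, chr5:144180683-144180742, plus strand: gtggctggtgtcgtccagaccattctctac
Kdelr2 probe from transcript base 1369, chr5:144182475-144182534, plus strand: cactacatgtcaggttcgggaggatgacta
Tmed10 probe from transcript base 1227, chr12:86683803-86683862, minus strand: cttcataattttatgtctcctaaaagggtc
Tmed10 probe from transcript base 3424, chr12:86681606-86681665, minus strand: catcttctgtttgttaatgggaagaggcat
Copg2 probe from transcript base 242, chr6:30840605-30840664, minus strand: cttcggaactatggaagctacagaagcctt

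In control cells the members lay high in polysome association. Their median log2 P/FM was 0.93, 0.59 above that of all coding mRNAs, and 40 of 45 lay at or above 0, as did 6366 of 10033 coding mRNAs. The highest were Cope at 2.28, Sec22b at 2.12 and Copg2 at 2.02, and the lowest Bet1 at -1.19 and Ergic2 (NM_026168) at -1.11. The level of Copg2 rested on a dim probe described with the COPI coat. After thapsigargin the median was 0.14, and 25 of 45 lay at or above 0, as did 3750 of 10033. The change in log2 P/FM was -0.8 or lower in 25 members (55.6%), which are called sensitive here, against a background of 47.0% of all coding mRNAs. Resistant mRNAs, at 0.8 or more on both arrays, numbered 3, namely Gbf1, Stx5a and Mcfd2 (6.67% against 3.00%). Inducible mRNAs, which started at 0 or less and gained 1 or more, were Sec24a and Sec16a (4.44% against 8.86%). The share of sensitive members thus lay near the background, and the roles spread widely around it.

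**Figure D1:**
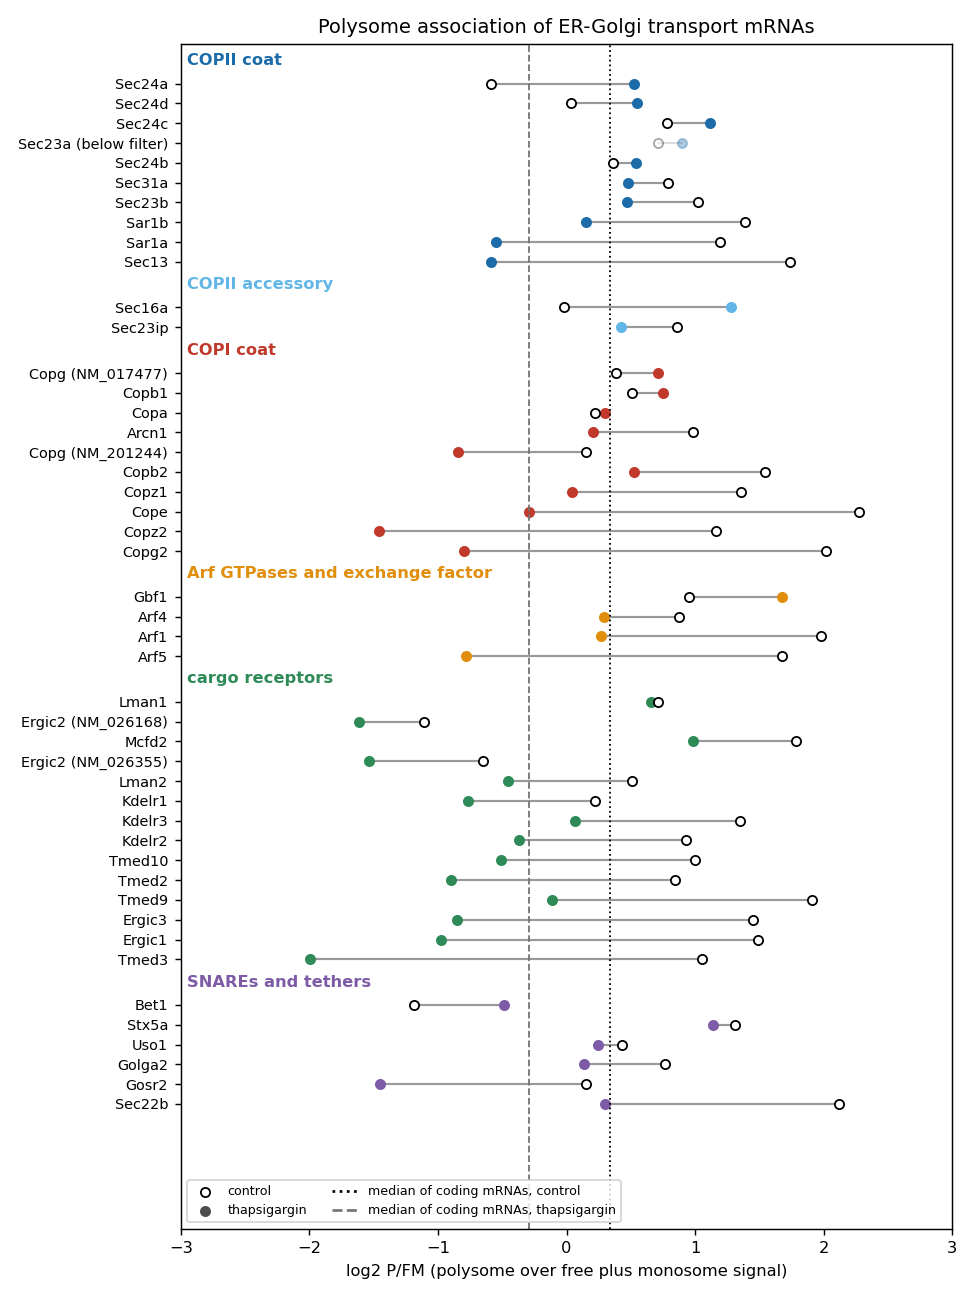
log2 P/FM of each of the 46 member mRNAs in control cells (open points) and after thapsigargin (filled points, coloured by role), with the medians of coding mRNAs on both arrays as vertical lines. Each point is the value of 1 array, averaged over probes. All 14 cargo receptor mRNAs lie further left after thapsigargin, while the 4 Sec24 mRNAs lie further right. Of all 10033 coding mRNAs above the filter, 7093 were lower and 2940 higher.

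Within the COPII coat the Sec24 mRNAs, which encode the cargo-binding subunits, stood apart from Sec13 and the Sar1 GTPases. The P signal of Sec24a was 33.1 in control and 93.4 in stressed cells, and its FM signal 55.3 and 59.6. Its log2 P/FM went from -0.58 to 0.53, a change of 1.11 ± 1.18 (SD over 2 probes), or 1.82 relative to all coding mRNAs. Sec24d had P signals of 153 and 366 and FM signals of 149 and 251, with log2 P/FM of 0.03 and 0.55. Sec24c had P signals of 857 and 1627 and FM signals of 499.7 and 752, with log2 P/FM of 0.78 and 1.11. Sec24b had P signals of 268 and 643 and FM signals of 209 and 443, with log2 P/FM of 0.36 and 0.54. Relative to all coding mRNAs the changes were 1.23 for Sec24d, 1.05 for Sec24c and 0.89 for Sec24b. In all 4 paralogs the P signal was thus multiplied by more than the FM signal. Their probes nearest the 3′ end started at bases 6301 (Sec24a), 3408 (Sec24d), 3900 (Sec24c) and 4388 (Sec24b). Coding mRNAs with this probe beyond base 3000 had a median relative change of 0.87. The corresponding probes of Sec13, Sar1a and Sar1b started at 516, 2518 and 897. The lowest relative changes among alternative processings were 0.44 (Sec24a), 0.69 (Sec24d), 0.36 (Sec24c) and 0.065 (Sec24b). The part of probe position in this contrast was not tested.

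The outer coat was divided. Sec13, a small subunit that also serves in the nuclear pore, had P signals of 1023 and 406 and FM signals of 272 and 625 in control and stressed cells. Its change of -2.32 ± 0.40 (SD over 2 probes) was the lowest of the COPII coat. Sec31a, its partner in the outer cage, changed by -0.31, or 0.41 above the median of all coding mRNAs, with P signals of 997 and 1635. Sar1a had P signals of 2628 and 2846 and FM signals of 1625 and 4042, and changed by -1.74 ± 0.98 (SD over 2 probes). Sar1b had P signals of 446 and 438 and FM signals of 170 and 394, and changed by -1.24. For both Sar1 mRNAs the P signal was nearly level (1.08 and 0.98 times control) while the FM signal was 2.49 and 2.31 times control.

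Sec23b, the GTPase-activating subunit, changed by -0.55 ± 0.14 (SD over 2 probes), with P signals of 321 and 672 and FM signals of 160 and 485. Its paralog Sec23a was the member below the filter, with mean A of 3.86 in control and 4.52 in stressed cells. The Sec23a probe from base 1848 was not well above background in any channel. The Sec23a probe from base 3144 was, and its P signal was 60.2 and 101, its FM signal 53.2 and 45.8, and its change 0.96. Sec23a thus rested on 1 usable probe, and the spread between the Sec23b probes is no error for a difference between genes. The difference between the paralogs was therefore not settled. Of the 9 COPII coat mRNAs above the filter, 3 were sensitive (33.3% against 47.0% of all coding mRNAs) and 4 were higher in log2 P/FM after thapsigargin, as were 2940 of 10033 coding mRNAs.

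Of the accessory factors, Sec16a organises ER exit sites and had the largest relative change of all members, 2.01. Its P signal was 45.4 in control and 137 in stressed cells, its FM signal 45.9 and 56.8, and its change 1.30 ± 0.43 (SD over 2 probes). Both Sec16a probes were higher, by 0.99 and 1.61. Sec23ip, a binding partner of Sec23, changed by -0.43 ± 0.35 (SD over 2 probes). One of its probes was not well above background in control FM, and the other changed by -0.18, with P signals of 294 and 691.

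The subunits of the COPI coat differed widely, from changes near 0 in Copa, Copb1 and a Copg accession to changes below -2 in Cope and Copz2. Copa (alpha-COP) had P signals of 591 and 1457 and FM signals of 594 and 1499, and its log2 P/FM was 0.22 and 0.30. Copb1 (beta-COP) changed by 0.24 ± 0.09 (SD over 2 probes), with P signals of 162 and 489 and FM signals of 103 and 273, and its dimmer probe was not well above background throughout. Copg (gamma-COP, NM_017477) changed by 0.33 ± 0.73 (SD over 2 probes), with P signals of 814 and 1850 and FM signals of 604 and 1535. Its other accession, NM_201244, was read by 1 probe with P signals of 53.1 and 29.3 and FM signals of 47.8 and 52.8, and changed by -1.0. The brighter probe of NM_017477 changed by -0.19 and the dimmer by 0.84, so the direction of Copg was not settled between its probes.

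Cope (epsilon-COP) had P signals of 3992 and 1338 and FM signals of 824 and 1639, and changed by -2.57. Copz2 (a zeta-COP isoform) had P signals of 545 and 156 and FM signals of 244 and 429, and changed by -2.62. Its paralog Copz1 had P signals of 5319 and 2407 and FM signals of 2072 and 2337, and changed by -1.32. In these 3 mRNAs the P signal was lower than in control and the FM signal higher. Copz2 and Copz1 were read by 1 probe each, from bases 595 and 1350, so no error was available for the difference between them. Copb2 (beta-prime-COP) changed by -1.02, with P signals of 950 and 1880 and FM signals of 326 and 1305, so both fractions were higher. Arcn1 (delta-COP) changed by -0.78 ± 0.53 (SD over 3 probes), with P signals of 96.2 and 142 and FM signals of 49.5 and 118.

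Copg2, the paralog of Copg, changed by -2.82 ± 2.94 (SD over 3 probes), with mean P signals of 104 and 188 and mean FM signals of 68.7 and 292. The probe whose sequence is shown above had an FM signal at the floor of 0.5 in control cells and alone changed by -6.20. Without it the log2 P/FM of Copg2 was 0.52 in control cells and -0.61 after thapsigargin, a change of -1.13, or -0.41 relative to all coding mRNAs. Of the 10 COPI mRNAs 6 were sensitive (60.0% against 47.0% of all coding mRNAs), and Copg2 was one of them with or without that probe.

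The Arf GTPases recruit coatomer once an exchange factor has loaded them with GTP. Arf5 had P signals of 780 and 286 and FM signals of 244 and 492, and changed by -2.46. Arf1 had P signals of 2777 and 1981 and FM signals of 714 and 1679, and changed by -1.71 ± 0.05 (SD over 2 probes). Arf4 changed by -0.59, with P signals of 1345 and 1530 and FM signals of 734 and 1253. Gbf1, the exchange factor of the early Golgi, went the other way, with P signals of 466 and 1784 and FM signals of 211 and 509. Its log2 P/FM went from 0.95 to 1.68, a change of 0.73 ± 0.14 (SD over 2 probes). The P signal of Gbf1 was multiplied by 3.82, more than that of any other member. The median relative change of these 4 mRNAs was -0.44, and its sign turned with processed signals (0.34), with loess (0.15) and against mRNAs of like A (0.26).

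All 14 cargo receptor mRNAs were lower in log2 P/FM after thapsigargin, as were 7093 of 10033 coding mRNAs. Of the 14, 12 were sensitive (85.7% against 47.0% of all coding mRNAs). The direction followed the scaling: 12 of 14 were lower with each array centred on its median, and 2 of 14 with the arrays scaled to the spike-ins. The median change of all coding mRNAs was -0.084 with centring and 1.74 with spike-in scaling. The share of coding mRNAs that were lower was not computed for these scalings. None of the 45 members was sensitive under spike-in scaling, where the background was 0.857%. Tmed3, of the p24 family that packs cargo into vesicles, had the lowest relative change of all members, -2.34. Its P signal was 17177 in control and 6166 in stressed cells and its FM signal 8269 and 24589, so its change was -3.05, from a log2 P/FM of 1.05 in control cells. Tmed9 had P signals of 14041 and 9718 and FM signals of 3732 and 10497, and changed by -2.02. Tmed2 changed by -1.74 ± 0.40 (SD over 3 probes), with P signals of 1465 and 1332 and FM signals of 1013 and 2937. Tmed10 changed by -1.50 ± 1.24 (SD over 2 probes), with P signals of 6420 and 4720 and FM signals of 2476 and 7341. In these 4 p24 mRNAs the FM signal was 2.81 to 2.97 times higher while the P signal was lower.

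Ergic1, which cycles through the intermediate compartment, changed by -2.46 ± 0.67 (SD over 2 probes), with P signals of 1622 and 892 and FM signals of 568 and 1828. Ergic3 changed by -2.30, with P signals of 147 and 60.3 and FM signals of 53.6 and 109. Ergic2 was low in log2 P/FM already in control cells, at -1.11 (NM_026168) and -0.65 (NM_026355), and its accessions changed by -0.50 ± 0.53 (SD over 3 probes) and -0.89. P signals of Ergic2 were nearly level, at 120 and 122 for NM_026168 and 179.9 and 172 for NM_026355. The KDEL receptors, which return escaped ER proteins, were all lower without scaling. Kdelr2 changed by -1.30 ± 1.27 (SD over 2 probes), with P signals of 1588 and 1466 and FM signals of 895 and 1850. Kdelr3 changed by -1.28, with P signals of 840 and 624 and FM signals of 331 and 596. Kdelr1 changed by -0.99, with P signals of 209 and 182 and FM signals of 179 and 311. The order of these 3 was within the spread between the Kdelr2 probes.

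The lectin Lman1 and its partner Mcfd2, which together export coagulation factors, had the highest log2 P/FM of the receptors after thapsigargin. Lman1 had P signals of 1355 and 1918 and FM signals of 826 and 1219, and its log2 P/FM was 0.71 and 0.65. It was the receptor with the largest relative change, 0.65, on 1 probe. Mcfd2 had P signals of 3274 and 3442 and FM signals of 1066 and 1998, with log2 P/FM of 1.79 ± 0.25 and 0.98 ± 0.30 (SD over 2 probes). Its change of -0.80 met the limit for sensitive mRNAs narrowly, and it met the definition of resistant too. The related lectin Lman2 changed by -0.96, with P signals of 366 and 250.5 and FM signals of 258 and 343.

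The SNAREs, which fuse vesicles with their target, and the tethers, which catch them first, were mixed. Bet1, the member with the lowest log2 P/FM in control cells, had P signals of 77.5 and 148 and FM signals of 163 and 222, and changed by 0.70 ± 0.85 (SD over 2 probes). Sec22b changed by -1.82 ± 0.07 (SD over 2 probes), with P signals of 2055 and 1379 and FM signals of 538 and 1293. Gosr2 changed by -1.60 ± 0.68 (SD over 3 probes), with P signals of 349.7 and 227 and FM signals of 318 and 529. Stx5a held at 1.31 ± 0.09 and 1.14 ± 0.16 (SD over 2 probes), with P signals of 252 and 341 and FM signals of 105 and 162. The tether Uso1 (p115) changed by -0.19 ± 0.17 (SD over 2 probes), with P signals of 184 and 379 and FM signals of 138 and 327. Golga2 (GM130), to which Uso1 binds, changed by -0.63, with P signals of 1283 and 2032 and FM signals of 753 and 1849. Relative to all coding mRNAs 4 of these 6 lay above 0.

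The comparison between the coats and the receptors placed COPII highest. The median relative change in log2 P/FM was 0.41 for the COPII coat (-1.61 to 1.82, 9 mRNAs), -0.30 for the COPI coat (-2.11 to 1.04, 10 mRNAs) and -0.58 for the cargo receptors (-2.34 to 0.65, 14 mRNAs). The medians of COPII and the receptors differed by 0.98, those of COPII and COPI by 0.70, and those of COPI and the receptors by 0.28, with no error available for a difference between group medians. The ranges of all 3 groups overlapped. Relative to all coding mRNAs 6 of 9 COPII mRNAs lay above 0, against 3 of 10 COPI mRNAs and 2 of 14 receptors. With the deposited log2 ratios the medians were 0.18 for COPII, -0.28 for COPI and -0.56 for the receptors. With normexp they were 0.25, -0.001 and -0.67. Set against mRNAs of like A, the medians were 0.94 for COPII, -0.17 for COPI and -0.20 for the receptors. Set against mRNAs whose probes lay at a like transcript position, they were 0.065, -0.24 and -0.45, so the height of COPII over all mRNAs was not seen there.

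**Figure D2:**
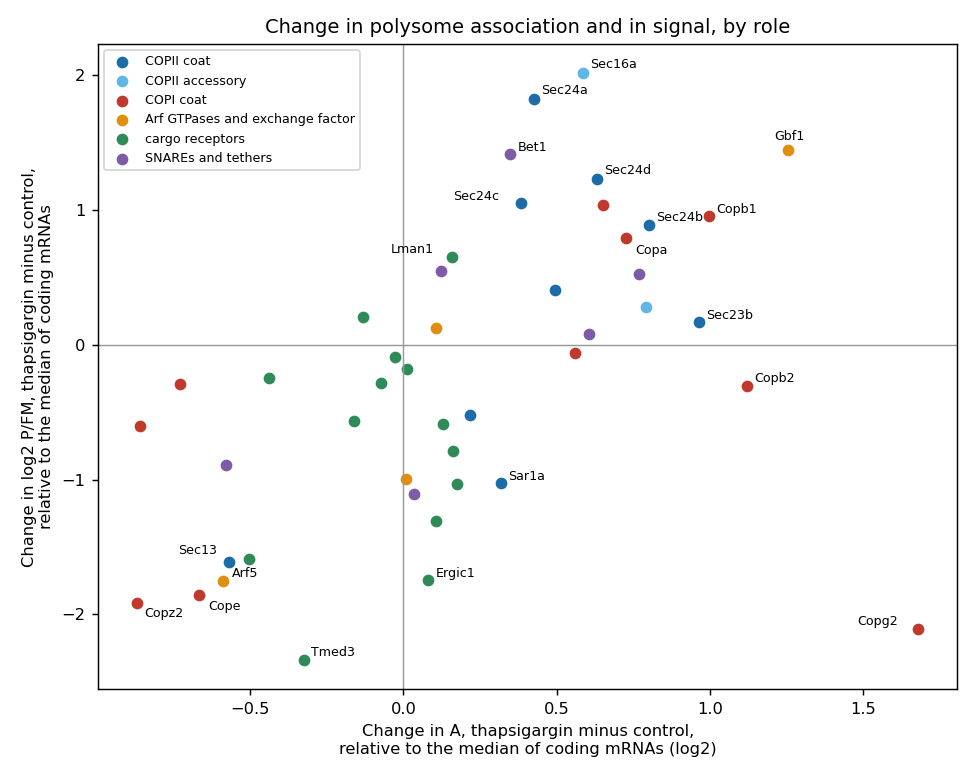
Change in log2 P/FM (vertical axis) against change in A (horizontal axis), thapsigargin minus control, each relative to the median of coding mRNAs, for the 45 member mRNAs above the filter, coloured by role. The Sec24 mRNAs, Sec16a, Gbf1, Copa and Copb1 lie in the upper right, Sec13, Arf5, Cope and Copz2 in the lower left, and Copg2 rests on a dim probe.

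Abundance gave another order of the coats. The median change in A relative to all coding mRNAs was 0.61 for the COPI coat, 0.43 for the COPII coat, 0.69 for the accessory pair, 0.24 for SNAREs and tethers, 0.06 for Arf GTPases with Gbf1 and -0.01 for cargo receptors. A was higher by 1 or more in 11 members (24.4%), against 11.7% of all coding mRNAs. They were Sec23b (1.34), Sec24b (1.17), Sec24d (1.00), Sec23ip (1.16), Copb2 (1.49), Copb1 (1.37), Copa (1.1), Copg NM_017477 (1.02), Copg2 (2.05), Gbf1 (1.63) and Uso1 (1.14), with the change in A in parentheses. None of the 14 receptors was among them, and the largest receptor value was 0.55, for Tmed2. The change in A of Copg2 was 1.46 without its dim probe. The COPI coat was divided here as well, since Copz1 (-0.49), Copz2 (-0.50), Cope (-0.29) and Copg NM_201244 (-0.36) were lower. With only mRNAs whose probes were all well above background the COPI median was -0.076, and with normexp background correction it was 0.12, against 0.93 for the COPII coat and 0.42 for the receptors. With normexp none of the 45 members was higher by 1 or more, though the matching share of all coding mRNAs was not computed.

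Of the 8 genes with the TGACGTGG core, 7 passed the filter. Of these, 4 (Sec24d, Copb1, Copb2 and Gbf1) were higher in A by 1 or more, against 11.7% of all coding mRNAs. The median relative change in A was 0.63 for these 7 mRNAs and 0.11 for the 34 mRNAs whose promoter lacked the core. Arf1, with the core, was at 0.01 and Kdelr3 at -0.16, while 7 mRNAs without it, among them Sec23b, Sec24b, Copa and Uso1, were higher in A by 1 or more. The ranges overlapped, from -0.16 to 1.26 with the core and from -0.87 to 1.68 without it. The probe nearest the 3′ end started at bases 3408, 2920, 2848 and 5901 in Sec24d, Copb1, Copb2 and Gbf1. In Arf1, Kdelr3 and Stx5a it started at 1089, 832 and 1278. Over the members this position rose with the change in A (Spearman's rho 0.67). With normexp no member was higher in A by 1 or more. The part of probe position in the difference by motif was not tested.

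The position of the probes in the transcript moved with these results. The first base covered by the probe nearest the 3′ end, a lower bound on the length of the mRNA, lay at or below 1000 for 8 members, and all 8 were sensitive, with a median relative change of -1.60. For the 13 members between 1000 and 2000 the median was -0.59, for the 9 between 2000 and 3000 it was -0.30, and for the 15 beyond 3000 it was 0.79, with 2 sensitive. Over all coding mRNAs the same bins gave -0.90, -0.39, 0.16 and 0.87, and 76.8% of the first bin and 19.3% of the last were sensitive. Spearman's rho between this position and the change in log2 P/FM was 0.65 over 45 members and 0.54 over 10031 coding mRNAs, and it was 0.67 and 0.31 for the change in A. These are correlations across mRNAs, which share both arrays and are not independent replicates. Sec24a, Sec16a and Gbf1 had their last probes at bases 6301, 7993 and 5901, and Sec13, Cope and Copz2 at 516, 612 and 595. The part of probe position or of mRNA length in the result was not tested.

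**Figure D3:**
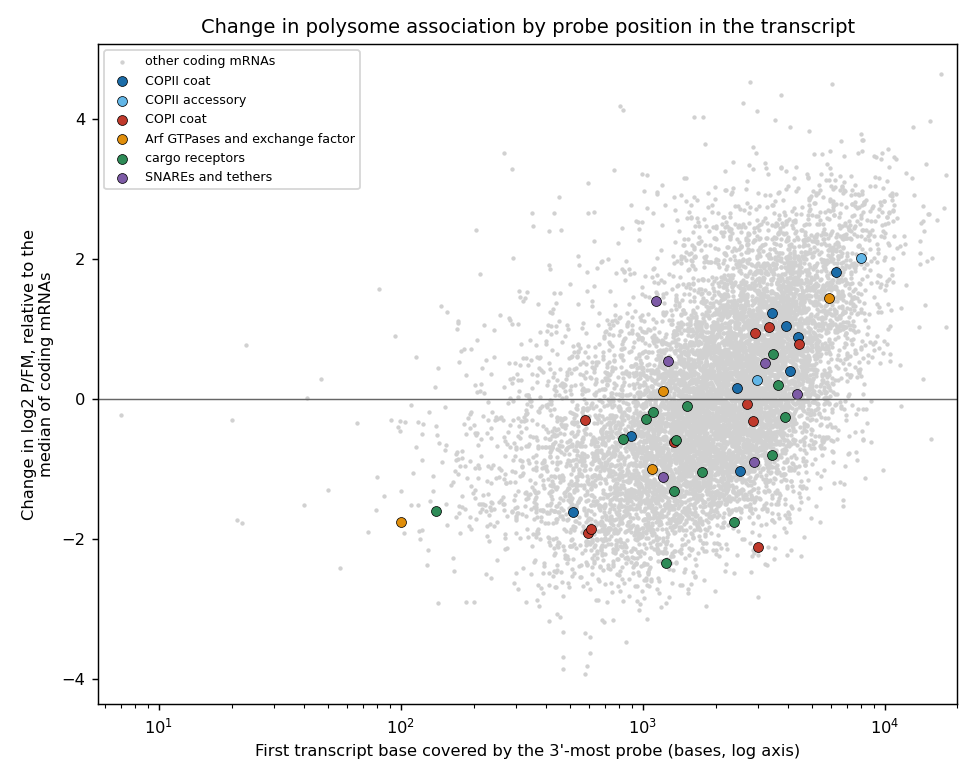
Change in log2 P/FM relative to the median of coding mRNAs (vertical axis) against the first transcript base of the probe nearest the 3′ end (horizontal axis, log scale), with members coloured by role and other coding mRNAs in grey. Members with probes beyond base 3000 lie mostly above 0, and those at or below base 1000 all lie below 0.

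The same direction appeared between probes of the same mRNA. Among 20 member mRNAs with probes well above background that started at least 200 bases apart, the probe nearest the 3′ end had the higher change in 15 (75.0%), with a median difference of 0.78. Among all 2676 such coding mRNAs it was higher in 1825 (68.2%), with a median of 0.31. The Kdelr2 probe from base 685 changed by -2.20 and that from base 1369 by -0.40. The Tmed10 probes changed by -2.38 (base 1227) and -0.63 (base 3424), the Sar1a probes by -2.43 (base 445) and -1.05 (base 2518), and the Sec24a probes by 0.28 (base 3693) and 1.94 (base 6301). Sec13 was the largest exception, with -2.04 at base 33 and -2.60 at base 516. The difference was present mainly in control cells, where the 3′ probe had the lower log2 P/FM in 18 of 20 member mRNAs (median difference -0.54), against 1848 of 2676 coding mRNAs (median -0.27). In stressed cells the median difference was 0.07 in both. A member read by 1 probe therefore carries an unknown offset of this kind, and 21 of the 46 mRNAs had 1 probe.

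**Figure D4:**
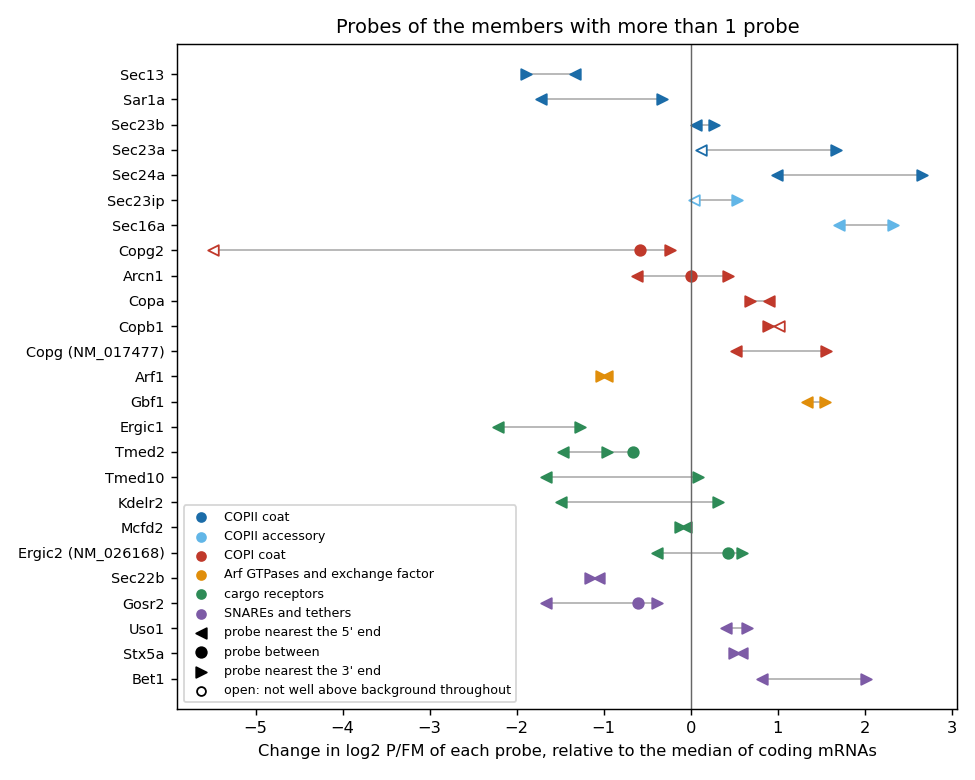
Change in log2 P/FM of each probe relative to the median of coding mRNAs (horizontal axis) for the 25 member mRNAs with more than 1 probe, where triangles to the left mark the probe nearest the 5′ end and triangles to the right that nearest the 3′ end. The probe nearest the 3′ end lies further right in most mRNAs, among them Kdelr2, Tmed10, Sar1a and Sec24a, and the open symbol of Copg2 at the far left is the dim probe.

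Other genes of the route, from a list of 60 further ER-Golgi genes of which 56 passed the filter, had a median relative change of -0.30 in log2 P/FM and 0.11 in A, near the values of the members (-0.25 and 0.16). Of these 56, 32 were sensitive (57.1%), 2 resistant (3.57%), 1 inducible (1.79%) and 9 higher in A by 1 or more (16.1%). The matching shares of all coding mRNAs were 47.0, 3.00, 8.86 and 11.7%. The highest changes among those with all probes well above background were in the SNARE Gosr1 (0.89), the tether subunit Cog3 (0.82) and Nbas (0.61), a subunit of the ER tether. The lowest were in Tmed1, of the p24 family (-3.62), Yif1b (-2.97) and the SNARE Ykt6 (-2.76). A was highest over control in Zw10 (1.52), a partner of Nbas, in Nbas (1.47) and in Ctage5 (1.34), which acts at ER exit sites. Clathrin and its adaptors, coats of the later route, had a median relative change of -0.50 in log2 P/FM and 0.10 in A over 23 mRNAs. ER translocation genes stood at -0.45 and 0.09 over 29 mRNAs. ER lumen chaperones stood at -0.88 and 1.02 over 18 mRNAs, and 14 of them (77.8% against 11.7%) were higher in A by 1 or more.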

How the data were processed

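Per the labels, P RNA carried Cy3 and FM RNA carried Cy5, and 300 ng of RNA over both fractions was labelled per sample. The study's methods state that FM and P RNA were labelled in the proportions found in the cells. For NIH3T3 cells this meant more P than FM RNA in control and more FM than P RNA after stress. Amounts in ng are given only for another cell type. Equal volumes of labelled cRNA were hybridized, so array-wide levels depend on these amounts. The authors extracted spot and background intensity values with Agilent Feature Extraction 10.7.1. The deposited files also hold processed intensity values and flags of 0 or 1 for spots above background, saturated or outlying. The authors also deposited log2 ratios of Cy3 to Cy5 for 11483 accessions, which equalled the mean over spots computed here within 0.001 for 99.99% (control) and 100% (thapsigargin) of values. Their scale is log2, their direction is P over FM, and they were not centred (column medians 0.21 and -0.36).

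The local background median was subtracted from the mean spot signal, with a floor of 0.5 (limma 3.58.1 in R 4.3.3), as the study's methods state. No normalization was applied. The 295 outlier spots (0.68%) were left out, none of them of a member. Spots were averaged per probe and probes per accession, and A above 4.5 was required on both arrays. No spot was saturated, and 42.5 to 46.3% of spots were well above background. Transcript positions are those of the deposited files. Current symbols came from the RefSeq table of GRCm38.p6, in which 45 of 46 member accessions matched.

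All 44 members are named. Signals were given for the 2 highest and 2 lowest changes in log2 P/FM and the 2 largest changes in A of each role, and for the paralog families, with others added to complete each role. The members and lists were chosen with earlier results of these data known. With 1 array per condition no test between conditions was made, and 3 pooled preparations give no spread. Steps were tested on simulated data. The 13 planned and 2 added alternatives appear in the closing section. Lengths of proteins were not analysed here. Python 3.11.15 with pandas 2.3.3 was used.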

Additional observations from a re-analysis of the deposited data

Results flagged for a closer look

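A signal outside the mRNAs compared was found at Arcn1 (delta-COP). The transcript AK154066, which is not a curated coding accession, was read by 1 probe that was well above background in both channels on both arrays. Its A was 7.37 in control and 8.17 in stressed cells, a difference of 0.80, and its log2 P/FM was 0.94 and 0.26. The 3 probes of the coding Arcn1 accession changed by 0.93 in A on average. The other 6 such transcripts of members were not well above background in both channels on the thapsigargin array.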

How the results depend on the processing

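No paired analysis was possible because each condition had 1 array, and for the same reason no replicate could be left out. Values count as moved when they differ by more than the SD between probes of an mRNA (0.32 for the change in log2 P/FM, 0.18 for that in A). Of 45 member mRNAs, 26 kept the sign of their relative change in log2 P/FM under every alternative that gave a value, and no relative change of 1 or more in size, in log2 P/FM or in A, changed its own sign. Medians below are relative to all coding mRNAs unless a setting changes that reference.

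With normexp the median change in A was 0.42 over all members, 0.93 for the COPII coat, -0.14 for the accessory pair, 0.12 for the COPI coat, 0.75 for Arf GTPases with Gbf1 and 0.42 for receptors, and the Arf median in log2 P/FM was -0.79. The counts of members sensitive, resistant, inducible and higher in A were 25, 3, 2 and 11 as reported. They were 15, 1, 1 and 0 with normexp, 14, 8, 0 and 4 with processed signals, 15, 3, 4 and 3 with centred arrays, and 0, 25, 5 and 18 with spike-in scaling. The matching shares of all coding mRNAs were 27.3, 3.45, 18.4 and 2.27% with centred arrays and 0.857, 30.6, 33.7 and 25.0% with spike-in scaling. Shares were not computed for normexp, processed signals, loess, median spot signals or other filters, so those counts have no background beside them. Loess left 11 sensitive, median spot signals 1 inducible, and A above 5.5 or above 7 left 0 inducible. The median change in log2 P/FM was 0.85, 0.73 and 0.34 for the COPII coat, the accessory pair and Arf with processed signals, 0.88, 0.67 and 0.15 with loess, and 0.94, 0.68 and 0.26 against mRNAs of like A, which also gave -0.20 for receptors. Members were 0.59 above all coding mRNAs in control cells and 0.24 with loess. With A above 5.5 the accessory median was 0.40, on Sec23ip alone. With A above 7 the medians in log2 P/FM were 0.080 over all members, -0.050 for Arf and -0.19 for receptors, and that in A was 0.017 for COPI. The accessory pair had no member there. Without a filter the medians in A were 0.35 over all members, 0.87 for the accessory pair, 0.79 for COPI, 0.24 for Arf, 0.18 for receptors and 0.42 for SNAREs and tethers. With only mRNAs whose probes were all well above background the accessory median in log2 P/FM was 2.13, on Sec16a alone, and the COPI median in A -0.076.

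A pair of alternatives was chosen after seeing the data. Against mRNAs of like probe position the medians in log2 P/FM were 0.065 for COPII, 0.16 for the accessory pair, -0.052 for Arf and -0.22 for SNAREs and tethers, and that in A was 0.49 for the accessory pair. Leaving out single probes not well above background moved no group median. Apart from the differences in filter or scaling that define each alternative, the cause was not tested. Signal over background limits Sec23a, Copb1, Copg2 and Sec23ip.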

Other observations

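The 9 genes listed as a check of ER stress, among them Hspa5, Ddit3 and Atf4, had a median relative change of 1.49 in log2 P/FM and 2.01 in A. Of these, 8 were higher in A by 1 or more (88.9% against 11.7% of all coding mRNAs). The exception was Atf4, whose change in A was 0.79 and whose log2 P/FM went from -1.60 in control to 1.83 in stressed cells. Sdf2l1, an ER lumen protein, was the only 1 of the 9 that was sensitive, at 2.14 in control and -0.14 in stressed cells, while its A was higher by 2.13.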
